A study of Homo sapiens with 10 samples.

Results

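MITF was followed transcript by transcript in 501Mel, an established human melanoma cell line. The members were the 7 Ensembl transcripts of MITF chosen by identifier, of which 6 were found among the 187626 transcripts listed for every RNA library. ENST00000394351 was taken as the melanocyte form and the others as longer forms. ENST00000394355 was not analysed here. RNA-seq of polyadenylated RNA covered 3 libraries of cells given siRNA against the transcription factor IRF4 (siIRF4) and 3 of cells given a control siRNA (siCTRL), with no further allele or agent named in the labels. The dose and duration of the siRNA are not given in the sources used here, and nothing says that the libraries came from separate cultures, so p-values measure the spread between these libraries only. ChIP-seq of IRF4 carrying an eGFP tag in the same line gave 2 peak lists, which were searched from 50 kb before to 50 kb after MITF. The list of replicate 1 held 6 of its 7568 peaks there and that of replicate 2 held 6 of its 12831. How the tagged protein was introduced, and at what level it was made, is not given in the sources used here, and the 2 input samples were not analysed here.

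MITF is a basic helix-loop-helix leucine zipper transcription factor that directs the pigment cell lineage. It activates genes for melanin synthesis, melanosome structure, survival and the cell cycle through E-box sequences. The gene has several alternative first exons, each with its own promoter. The most downstream of them is used in melanocytes and melanoma cells and gives the short M protein, while upstream first exons give forms with longer amino termini found in many tissues. SOX10, PAX3, LEF1 and CREB are known activators of the melanocyte promoter. IRF4 is itself expressed in pigment cells, and cooperates with MITF at an enhancer of TYR, the gene of the rate-limiting enzyme of melanin synthesis.

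RefSeq places MITF on the plus strand of chromosome 3 from 69739464 to 69968332 in GRCh38.p14, a span of 228869 bases with 13 curated transcripts. The promoter table for that build lists 3 start sites, at 69739464, 69763811 and 69936592. The second and the third lie 24347 and 197128 bases after the first. The outermost promoters are shown because the levels of the gene's transcripts differed by library. The third start is the most downstream of those listed. Each window of 300 bases begins 250 bases before the start site, with capitals for matches to the motifs searched, and the start site is position 0.
Start 1, chr3:69739214-69739513 (GRCh38.p14, plus strand): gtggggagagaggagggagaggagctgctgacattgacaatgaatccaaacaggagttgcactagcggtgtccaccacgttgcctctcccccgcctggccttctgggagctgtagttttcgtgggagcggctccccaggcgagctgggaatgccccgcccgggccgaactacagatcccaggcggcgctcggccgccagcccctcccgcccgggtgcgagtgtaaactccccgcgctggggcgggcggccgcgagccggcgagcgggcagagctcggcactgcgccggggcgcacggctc
Start 3, chr3:69936342-69936641 (GRCh38.p14, plus strand): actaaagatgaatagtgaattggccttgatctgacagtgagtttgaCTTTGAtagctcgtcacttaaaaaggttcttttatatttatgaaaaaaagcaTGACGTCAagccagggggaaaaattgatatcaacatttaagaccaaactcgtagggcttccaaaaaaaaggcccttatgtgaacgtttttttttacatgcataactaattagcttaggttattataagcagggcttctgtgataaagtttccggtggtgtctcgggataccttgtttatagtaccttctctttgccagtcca

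The first window is rich in G and C (70.3%), and the third is poor in them (37.0%), against a median of 58.7% over all 35116 promoters of the table. The third window holds the cyclic AMP response element TGACGTCA, the site of CREB, at positions -152 to -145. It is present in 1.85% of all promoters of the table, and in neither the first nor the second MITF window. The third window also holds CTTTGA, the core recognised by LEF1, at positions -204 to -199, which 12.9% of promoters contain. The interferon-stimulated response element core GAAANNGAAA (3.57% of promoters) and the composite ETS-IRF element GGAANNGAAA (2.82%) were searched as IRF motifs. Neither matched any of the 3 MITF windows. The E-box CANNTG, found in 68.7% of promoters, matched the second window only, at positions 28 to 33. All motifs were searched on both strands, and none of the printed matches overlaps another. A match or its absence describes letters in these windows and no binding.

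The 6 RNA libraries held between 129989698 and 203758441 estimated counts. The target of the siRNA was examined first. ENST00000380956, taken as the main IRF4 transcript from general knowledge of Ensembl identifiers since the files pair no transcripts with genes, was at 15.3, 2.13 and 1.74 TPM in the libraries labelled siIRF4 replicates 1, 2 and 3. TPM is an abundance per transcript length scaled to 1000000 in each library. The libraries labelled siCTRL replicates 1, 2 and 3 held 16.5, 3.44 and 3.77 TPM. The level in the library labelled siIRF4 replicate 1 was above those labelled siCTRL replicates 2 and 3, which goes against its label. It was slightly below that of siCTRL replicate 1, itself far above the other siCTRL libraries. Under each replicate number the siIRF4 library held less IRF4 than the siCTRL library, though the numbers were not taken as pairs. The log2 fold change of IRF4 was -0.28 (SE 1.02, adjusted p = 1 by edgeR's quasi-likelihood test), so a knockdown was not measurable over the groups as labelled, without pairs. With the replicate numbers as a block it was -0.64 (SE 0.25, adjusted p = 0.997 by the same test). In the fit without the block, leaving out the libraries labelled siIRF4 replicate 1 and siCTRL replicate 2, which earlier work on these data had found away from their groups, gave -2.40 (SE 0.73). These are the siIRF4 library with the most IRF4 and the siCTRL library with the least. The direction and size of that fit follow from this choice, and it is no measure of a knockdown. The siCTRL libraries kept held 16.5 and 3.77 TPM. The log2 fold change of IRF4 was -2.05 without siIRF4 replicate 1 alone. It was positive without siIRF4 replicate 2 (0.14), siIRF4 replicate 3 (0.19) or siCTRL replicate 1 (0.86). On the first principal component of all other tested transcripts, which carried 33.6% of the variance, the library labelled siIRF4 replicate 1 lay at 111, beside siCTRL replicates 1 and 3 at 128 and 173. The library labelled siCTRL replicate 2 lay at -132, with siIRF4 replicates 2 and 3 at -199 and -80.8.

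**Figure D1:**
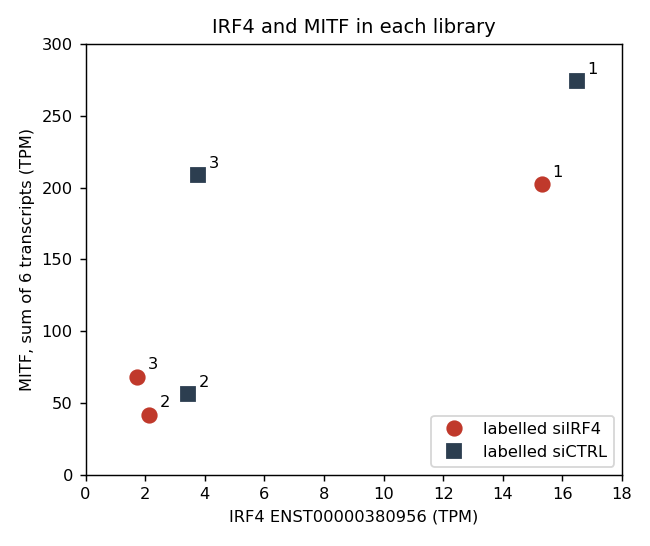
IRF4 transcript ENST00000380956 (x axis, TPM) against the sum of 6 MITF transcripts (y axis, TPM), 1 point per library, numbered by replicate, with circles for libraries labelled siIRF4 and squares for siCTRL. In 3 libraries MITF lies between 202.5 and 274 TPM and in the others between 41.8 and 68.4 TPM, and both labels occur in each cluster. IRF4 does not split the libraries in the same way. The library labelled siCTRL replicate 3 has IRF4 at 3.77 TPM with MITF at 209 TPM, and siCTRL replicate 2 has IRF4 at 3.44 TPM with MITF at 56.4 TPM.

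The melanocyte form ENST00000394351 was the most abundant MITF transcript in all 6 libraries. It was at 126, 29.6 and 46.4 TPM in the libraries labelled siIRF4 replicates 1, 2 and 3. The libraries labelled siCTRL replicates 1, 2 and 3 held 157, 39.8 and 115 TPM. The values fell into 3 high libraries, siIRF4 replicate 1 with siCTRL replicates 1 and 3, and 3 low libraries, so the labelled groups overlapped. These are the same sides on which the libraries lay along the first principal component; what part that difference between libraries had in the levels of MITF was not tested. The melanocyte form ranked between 816 and 4626 among all transcripts of a library by TPM. In bulk RNA, fewer cells with the transcript and less of it per cell cannot be told apart.

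ENST00000314557 was the second most abundant form in all 6 libraries. It had 60.8, 6.27 and 15.3 TPM in the libraries labelled siIRF4 replicates 1, 2 and 3. It had 100.1, 7.17 and 71.0 TPM in those labelled siCTRL replicates 1, 2 and 3. The high and low libraries were those of the melanocyte form, and the range was wider, 15.98-fold from the lowest to the highest library against 5.3-fold. This transcript was named among the longer forms, and its class was not checked. It is listed at 1798 bases, against 4479 for the melanocyte form. ENST00000448226, also named as a longer form, is listed at 2096 bases. The length of a whole transcript does not give its first exon, and nothing used here assigns a first exon to either. Sums over the longer forms are therefore given with and without it.

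ENST00000352241, of 4814 bases, varied most among the forms with a value in every library. Its levels were 11.4, 0.48 and 2.49 TPM in the libraries labelled siIRF4 replicates 1, 2 and 3. They were 12.1, 1.77 and 19.3 TPM in those labelled siCTRL replicates 1, 2 and 3, so the highest library was 40.2-fold above the lowest. The library labelled siCTRL replicate 3 led here, where siCTRL replicate 1 led for the melanocyte form.

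The other forms did not share that pattern. ENST00000328528 had 3.79, 4.69 and 2.86 TPM in the libraries labelled siIRF4 replicates 1, 2 and 3. It had 3.44, 5.83 and 2.37 TPM in those labelled siCTRL replicates 1, 2 and 3. Its highest levels stood in siCTRL replicate 2 and siIRF4 replicate 2, the pair lowest in ENST00000314557, and its whole range was 2.5-fold. ENST00000314589 lay between 0.501 and 1.25 TPM in the libraries labelled siIRF4 and between 1.08 and 1.79 TPM in those labelled siCTRL. ENST00000448226 reached at most 0.148 TPM, with at most 28.8 estimated counts, and was listed at 0 in siIRF4 replicate 1 and siCTRL replicate 3. By mean level the order was ENST00000394351, ENST00000314557, ENST00000352241, ENST00000328528, ENST00000314589 and ENST00000448226. The third and the fourth changed places between libraries: ENST00000352241 was above ENST00000328528 in the 3 libraries with high MITF and below it in the others.

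**Figure D2:**
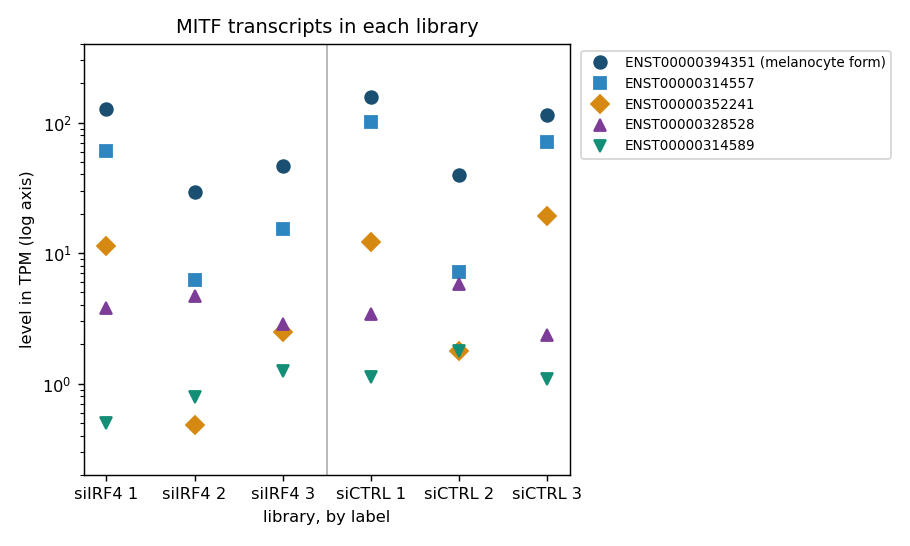
Level of 5 MITF transcripts in TPM (y axis, log scale) in each library (x axis, labelled siIRF4 to the left of the line and siCTRL to the right). The melanocyte form, ENST00000314557 and ENST00000352241 are high in siIRF4 replicate 1 and siCTRL replicates 1 and 3, while ENST00000328528 stays between 2.37 and 5.83 TPM.

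The makeup of the MITF signal shifted with its level. The melanocyte form took 62.2%, 70.7% and 67.9% of the summed MITF TPM in the libraries labelled siIRF4 replicates 1, 2 and 3. It took 57.3%, 70.6% and 55.1% in those labelled siCTRL replicates 1, 2 and 3. The means were 66.9% ± 4.34 (SD, n = 3) in siIRF4 and 61.0% ± 8.35 (SD, n = 3) in siCTRL. The difference of 5.93 percentage points had an exact two-sided permutation p of 0.3, where 3 libraries against 3 cannot go below 0.1. Counted as a share of estimated counts the groups did not overlap, with 76.4% to 78.6% in siIRF4 and 69.6% to 76.1% in siCTRL, at the smallest p the design allows (exact permutation, p = 0.1). By level of MITF these count shares of the melanocyte form did overlap. They were 69.6% to 76.4% in the 3 high libraries and 76.1% to 78.6% in the others. ENST00000314557 took from 12.7% in siCTRL replicate 2 to 36.5% in siCTRL replicate 1. The level of the melanocyte form was 1.57 to 2.07 times that of ENST00000314557 in the 3 libraries with high MITF and 3.03 to 5.55 times in the others. Together they held between 83.3% and 93.9% of the MITF signal of a library. ENST00000328528 made up 11.2% in siIRF4 replicate 2 and 10.3% in siCTRL replicate 2, against 1.14% in siCTRL replicate 3. Fragments that fit several transcripts of the gene are split between them by estimation, so a share carries that uncertainty as well.

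**Figure D3:**
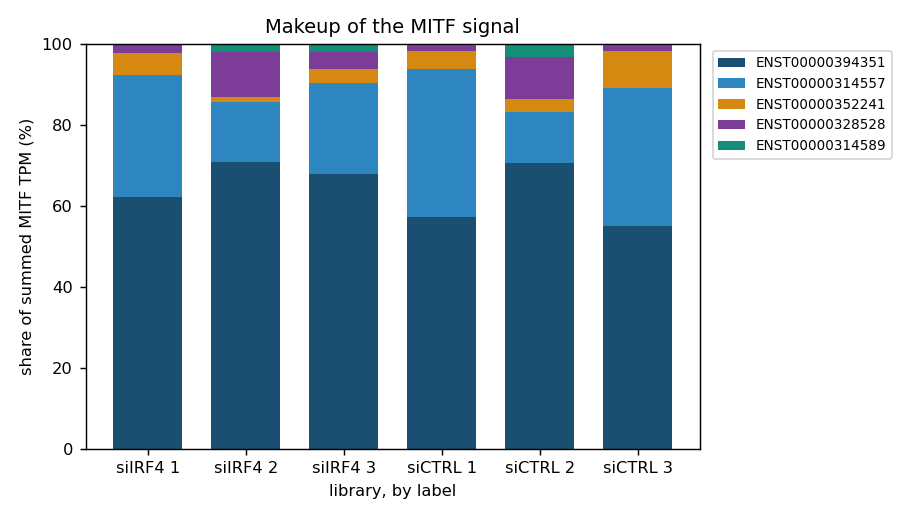
Share of each MITF transcript in the summed MITF TPM (y axis, percent) in each library (x axis, by label); ENST00000448226, at most 0.101%, is not drawn. The melanocyte form takes between 55.1% and 70.7%, and ENST00000314557 is largest in the libraries with high MITF.

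The comparison of siIRF4 with siCTRL asked whether MITF transcripts follow IRF4. With all 6 libraries as labelled, 0 of the 5 MITF transcripts tested passed an adjusted p of 0.05 in edgeR, 0 had an unadjusted p under 0.05, and DESeq2 called 0. Among all 83831 transcripts tested, edgeR called 0 (0%), and 1791 (2.14%) had an unadjusted p under 0.05. DESeq2 called 192 of 98762 (0.194%). ENST00000448226 did not pass the filter on low counts in this edgeR fit, and DESeq2, which tested it, gave a log2 fold change of -1.63 (SE 1.93, adjusted p = 1). The TPM values of the groups overlapped for all 6 MITF transcripts, while they did not overlap for 7.17% of tested transcripts. The 5 tested forms had negative log2 fold changes, with a median of -0.67. Over all tested transcripts the median was -0.0064, and 50.7% were negative.

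The log2 fold change of the melanocyte form was -0.62 (SE 0.67), that of ENST00000314557 was -1.09 (SE 1.09) and that of ENST00000352241 was -1.19 (SE 1.20). Each standard error was about as large as the difference, and each adjusted p was 1 in edgeR. ENST00000314589 was at -0.67 (SE 0.37) and ENST00000328528 at -0.03 (SE 0.37), also with an adjusted p of 1. Leaving out each library in turn moved the melanocyte form between -1.50 (without siIRF4 replicate 1) and -0.19 (without siCTRL replicate 1). ENST00000314557 moved between -2.51 and -0.49 with the same libraries left out. ENST00000352241 moved between -2.98 (without siIRF4 replicate 1) and -0.51 (without siCTRL replicate 3), and ENST00000314589 between -0.99 (without siIRF4 replicate 3) and -0.39 (without siCTRL replicate 2). The direction of ENST00000328528 depended on the libraries and scale used.

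Summed over the 6 forms, MITF stood at 202.5, 41.8 and 68.4 TPM in the libraries labelled siIRF4 replicates 1, 2 and 3. The sum was 274 TPM, 56.4 TPM and 209 TPM in those labelled siCTRL replicates 1, 2 and 3. The library labelled siIRF4 replicate 1 lay below the high siCTRL libraries but far above the other siIRF4 libraries, and siCTRL replicate 2 lay between the low siIRF4 libraries. Under each replicate number the siIRF4 library was below the siCTRL library, though the numbers were not taken as pairs. The log2 fold change of the sum was -0.70 (SE 0.69, edgeR adjusted p = 1). It moved to -1.60 (SE 0.60, adjusted p = 0.938) without siIRF4 replicate 1 and to -1.10 (SE 0.62, adjusted p = 0.937) without siCTRL replicate 2. Without both libraries it was -1.996 (SE 0.23), in a fit in which 12.6% of all transcripts had an unadjusted p under 0.05 and 0% passed the adjusted threshold. The libraries left out there are the siIRF4 library with high MITF and the siCTRL library with low MITF, so the fit sets low against high libraries. Its direction, size and small SE follow from that choice, and its values are a description only. It was -0.35 without siIRF4 replicate 2, -0.45 without siIRF4 replicate 3 and -0.31 without siCTRL replicate 1. The sum passed the threshold in none of these fits.

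The longer forms summed to 117 TPM with ENST00000314557 and 16.8 TPM without it in siCTRL replicate 1. In siCTRL replicate 2 these sums were 16.6 and 9.44 TPM. The longer forms summed had a log2 fold change of -0.94 (SE 0.73, edgeR adjusted p = 1), and -0.79 (SE 0.49, adjusted p = 1) when ENST00000314557 was left out of the sum. Without the libraries labelled siIRF4 replicate 1 and siCTRL replicate 2 these became -2.34 (SE 0.19) and -1.71 (SE 0.20), with the same limit as for the sum of all forms. In that fit of 4 libraries the melanocyte form was at -1.88 (SE 0.25) and ENST00000314557 at -3.03 (SE 0.45). ENST00000352241 was at -3.48 (SE 0.80), while ENST00000314589 and ENST00000328528 were at -0.14 (SE 0.28) and 0.37 (SE 0.36). Whether the forms differed from each other in their response was not tested.

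**Figure D4:**
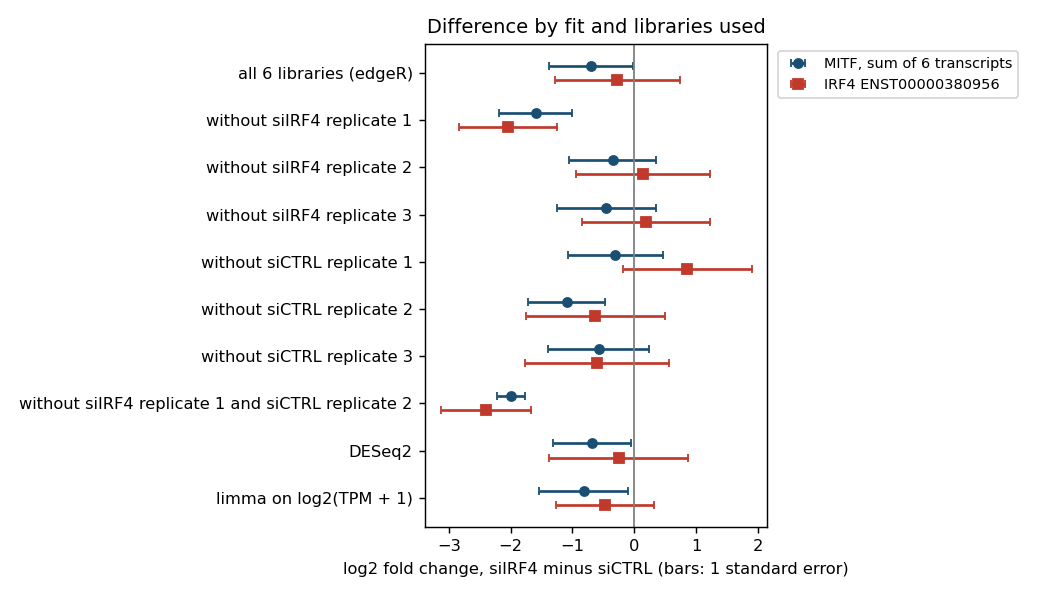
Log2 fold change, siIRF4 minus siCTRL (x axis, bars 1 standard error), of the MITF sum and of IRF4 with all 6 libraries, with libraries left out and with other tests (y axis). The MITF sum lies between -1.996 and -0.31 throughout, and IRF4 lies on both sides of 0.

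The spread within the labelled groups was large for the forms that made up most of the signal. CPM is counts scaled to a library total of 1000000, and for log2 CPM the library totals were first adjusted by edgeR's TMM factors. The SD of log2 CPM of the melanocyte form was 1.09 for siIRF4 and 1.04 for siCTRL (n = 3 libraries). The median SD of the 1260 transcripts with a mean CPM of 0.5 to 2 times its own was 0.179 and 0.176, and 98.9% and 98.6% of them had a smaller SD. ENST00000314557 had SDs of 1.66 and 2.07, and ENST00000352241 of 2.28 and 1.83. By contrast, 77.7% of transcripts of similar abundance had a smaller SD than ENST00000314589 in siIRF4 and 57.9% in siCTRL. For ENST00000328528 these shares were 77.7% in siIRF4 and 88.2% in siCTRL, so it too varied more than most. IRF4 itself had SDs of 1.78 and 1.27. The melanocyte form had at least 12308 estimated counts in every library; the part of fragment sampling and of the split between isoforms in this spread was not tested.

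Other transcripts varied over the libraries much as the melanocyte form did. Among the 18540 transcripts that averaged 5 CPM or more, 1524 (8.22%) had a Pearson's r of at least 0.9 with it in log2 CPM over the 6 libraries, and 1264 (6.82%) had an r of -0.9 or lower. The coefficients describe these libraries, which fall into 3 high and 3 low ones for the melanocyte form, and no coefficient within either set was computed. The closest were ENST00000483392 (r = 0.9992), at 5.06 to 69.5 TPM, and ENST00000324453 (r = 0.9987), at 7.18 to 43.2 TPM. The files pair neither with a gene.

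IRF4 peaks stood inside MITF and on both sides of it, with the peak before the gene in the list of replicate 1 only. In hg19, the gene span was taken as chromosome 3 from 69788000 to 70018000, rounded to 1 kb, and the window added 50 kb on each side. Both lists agree at 2 places. Inside the gene, replicate 1 had a peak from 69969123 to 69970592 with an authors' score of 148.8. Replicate 2 had its peak there from 69969025 to 69970490, scored 597.83. These overlapped by 1368 bases, and they began 181123 and 181025 bases after the gene's start. The other place lay 30313 bases (replicate 1) and 30333 bases (replicate 2) beyond the end of the gene span. Replicate 1 listed it from 70048313 to 70049526, scored 185.58, and replicate 2 from 70048333 to 70049582, scored 596.88. In replicate 2 both scored above 88.4% of the list. In replicate 1 they scored above 38.7% and 54.1%. Scores come from the authors and rank peaks within their list only.

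The remaining peaks were in a single list each. Replicate 1 alone had peaks from 69740442 to 69741445 (score 162.39), from 69928190 to 69928659 (score 183.82), from 69986613 to 69987555 (score 113.03) and from 70013747 to 70014732 (score 277.42). The first of these lay before the gene span and the others inside it, and the peak at 70013747, 4253 bases before the end of the span, was the best-scoring of replicate 1 in the window. Replicate 2 alone had a peak from 69788015 to 69790008 (score 264.71), which began 15 bases after the rounded start of the gene. Its other peaks ran from 69840181 to 69840588 (score 178.78), from 69910482 to 69910990 (score 198.25) and from 69975388 to 69975919 (score 168.94). The start sites above are in GRCh38 and the peaks in hg19, so the distance of a peak from a promoter was not measured.

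Of the 6 peaks of each list in the window, 2 were shared, whereas 62.1% of all replicate 1 peaks and 36.8% of all replicate 2 peaks overlapped a peak of the other list. Each list held 18.2 peaks per megabase in the window, against 2.84 and 4.85 per megabase over chromosome 3. The window was chosen for a gene and these densities were not tested. With 2 ChIP replicates and no list without the tagged protein, no test of binding at MITF was made, and peak sequences were not analysed here.

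**Figure D5:**
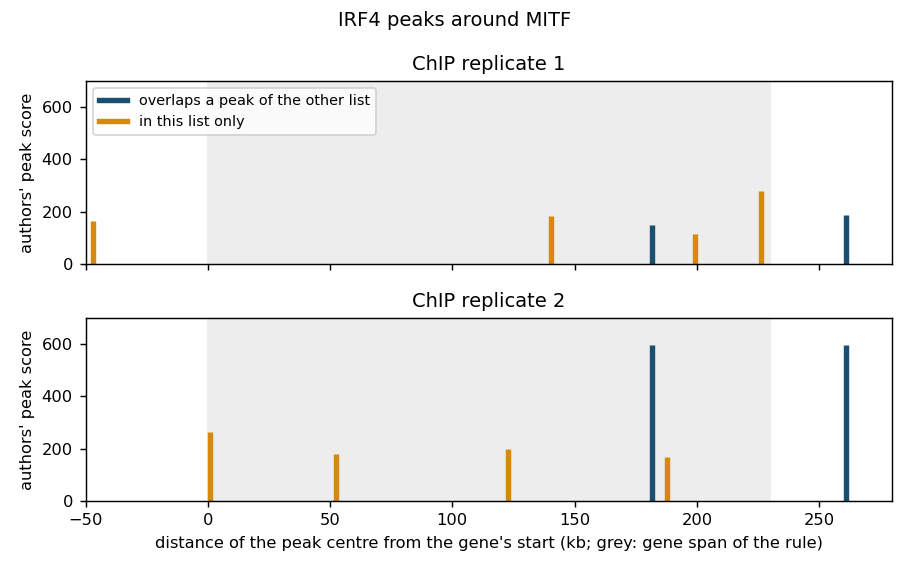
Peaks of each ChIP replicate around MITF, with the distance of the peak centre from the gene's start in kb (x axis) and the authors' score (y axis); blue lines are peaks that overlap a peak of the other list and orange lines are in a single list. Both lists share a peak inside the gene and a peak beyond its end, with scores of 597.83 and 596.88 in replicate 2 and 148.8 and 185.58 in replicate 1.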

How the data were processed

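The authors deposited, per RNA library, estimated counts and TPM per Ensembl transcript, in the columns that kallisto writes, per the file headers. The submitters' processing notes name kallisto, sleuth, Bowtie2, GRCh38 and hg19 without roles. The deposited peak lists give a position and the authors' score for each peak, and neither the score's definition nor the caller's settings are given in the sources used here. The lists begin at scores of 100.01 and 150.01. Peak coordinates were taken as hg19, and starts were counted from 1.

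Groups and replicate numbers follow the sample titles. The members and lists were chosen with earlier results of these data known. All MITF transcripts of the rule, IRF4 and every peak in the window are named. The planned pathway and cell type lists could not be matched to transcripts and were not analysed here. Values were tested per transcript, with estimated counts rounded to whole numbers, by edgeR 4.0.16 in R 4.3.3 (TMM, filterByExpr, quasi-likelihood, two-sided, Benjamini-Hochberg over all tested transcripts, threshold 0.05). For summed forms, the transcripts were replaced by their sum and the whole table was fitted again. SE is the absolute log2 fold change over the square root of F. CPM was computed from the deposited estimated counts. Log2 CPM (prior count 2) was computed from the rounded counts of the tested transcripts with TMM, and was also used for the principal components. Likeness was Pearson's r to the melanocyte form. Alternatives were DESeq2 1.42.0, limma 3.58.1 for transcripts averaging 1 TPM or more (log2 of TPM plus 1, or plus 0.1), RLE, no filter, a replicate block and libraries left out. The code was tested on simulated data. No pair of libraries agreed within sampling noise (chi-square per degree of freedom at least 34.5). Sequences are from RefSeq tables of GRCh38.p14.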

Additional observations from a re-analysis of the deposited data

How the results depend on the processing

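The log2 fold change of the MITF sum was negative under all 13 alternatives and that of the longer forms under all 14, and neither passed the adjusted threshold in any of them. Leaving out each library gave -1.60 to -0.31 for the sum, -1.92 to -0.59 for the longer forms and 2.98 to 10.7 percentage points for the share of the melanocyte form. The sum of the longer forms without ENST00000314557 was chosen after seeing the data. It ran from -1.42 (without siIRF4 replicate 1) to -0.45 (without siCTRL replicate 3). No MITF transcript passed the threshold in any fit, with a lowest adjusted p of 0.117 for the melanocyte form, in the fit without siIRF4 replicate 1 and siCTRL replicate 2, whose choice of libraries fixes its size. IRF4 ran from -2.05 to 0.86 when each library was left out, positive without siIRF4 replicate 2 (0.14), siIRF4 replicate 3 (0.19) or siCTRL replicate 1 (0.86), and was -2.40 without siIRF4 replicate 1 and siCTRL replicate 2. ENST00000328528 was positive without siIRF4 replicate 3 (0.18), without siCTRL replicate 2 (0.39), without siIRF4 replicate 1 and siCTRL replicate 2 (0.37), with the replicate block (0.028), and with limma on TPM plus 1 (0.014) and plus 0.1 (0.030), and ran from -0.28 to 0.39 when each library was left out; the cause was not tested.

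The replicate block gave -0.76 (SE 0.29, edgeR adjusted p = 0.997) for the MITF sum, -0.996 (SE 0.39, adjusted p = 0.997) for the longer forms and -0.64 (SE 0.25, adjusted p = 0.997) for IRF4, and changed no call. For the longer forms without ENST00000314557 it gave -0.85 (SE 0.39, adjusted p = 0.997). Deviations of same-numbered libraries from their group means correlated at 0.196, 0.238 and 0.0381, and 4 of the 6 libraries correlated best with their own number in the other group. As the last coefficient is under 0.1, a limit set by choice, the numbers were not taken as pairs. The labels do not say whether they mark pairs, and the spread depends on this choice. With the block the SE fell from 1.02 to 0.25 for IRF4 and from 0.69 to 0.29 for the MITF sum. The unadjusted p was then 0.054 and 0.051 (edgeR's quasi-likelihood test). DESeq2 gave no p for IRF4.

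The count of shared peaks in each list fell from 2 to 1 when both lists were limited to scores from 150 up, which removes the replicate 1 peak of 148.8, and to 1 within the gene span, which leaves out the peak beyond its end. A reciprocal overlap of 50% kept the count at 2. Not run were the pathway lists and counts summed per gene. The effect of depth on these values was not tested; ENST00000448226 had at most 28.8 estimated counts.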
